A study of Mus musculus with 15 samples.

Results

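Interferon response genes are switched on when a cell senses viral nucleic acid or receives interferon. The 9 genes described here are Rsad2, Cmpk2, Ifit1, Ifit3, Isg15, Irf7, Irf9, Stat2 and Usp18, chosen by name as interferon-stimulated genes and their regulators. They were chosen with earlier results of these data known. Of the 9, 8 had a probe set that carries their symbol alone, among 19938 genes measured in this way. The probe set of Isg15, the ubiquitin-like modifier, carries another symbol as well, so no value is given for it. Each gene was read from its probe set of highest mean, as log2 expression.

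RNA came from fetal livers of FVB/NJ embryos at E14.5, in mid-gestation. The livers were separated magnetically with beads against TER119, an antigen of maturing red cell precursors, into positively selected (TER119 positive) and depleted (TER119 negative) cells. There were 3 arrays of Klf3 knockout (KO) TER119 positive cells, 4 of wildtype (WT) TER119 positive cells, 4 of Klf3 KO TER119 negative cells and 4 of WT TER119 negative cells. No treatment is named, and the labels state neither which part of Klf3 was removed nor whether the replicates came from separate embryos. The spread behind each p-value may therefore be partly technical, and precision is limited by how few arrays there are.

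In the classical pathway, type I interferons bind the receptor chains IFNAR1 and IFNAR2, and the kinases JAK1 and TYK2 phosphorylate STAT2. STAT2 acts with IRF9 in a complex, called ISGF3, that binds interferon-stimulated response elements near its target genes. IRF7, itself a target, amplifies interferon production, and USP18 closes the loop at the receptor. KLF3, a zinc finger protein of red cell precursors and other tissues, binds CACCC-type sites and represses transcription through the corepressor CtBP.

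Rsad2 and Cmpk2 lie next to each other on mouse chromosome 12, with 0 annotated genes between them in RefSeq's annotation of GRCm38.p6. Rsad2 encodes viperin, a radical-SAM enzyme that converts CTP into a chain-terminating antiviral nucleotide. Cmpk2 encodes a mitochondrial nucleoside monophosphate kinase that takes part in making CTP and dCTP. The pair is known to be induced together by interferon. Their upstream sequences are shown because they are the genes that differed with the genotype, and that of Ifit1, an interferon-stimulated gene whose level did not pass that test, is set beside them. The sequences are RefSeq's, build GRCm38.p6, each 5′ to 3′ on the gene's own strand. They lie at chr12:26456453-26456702 for Rsad2 (minus strand), chr12:26468965-26469116 for Cmpk2 (plus strand) and chr19:34640639-34640888 for Ifit1 (plus strand). Capitals mark matches to the core of the interferon-stimulated response element (GAAA, any 2 bases, GAAA) and in Rsad2 also to the KLF consensus CCNCNCCC, here all read on the opposite strand.
Rsad2: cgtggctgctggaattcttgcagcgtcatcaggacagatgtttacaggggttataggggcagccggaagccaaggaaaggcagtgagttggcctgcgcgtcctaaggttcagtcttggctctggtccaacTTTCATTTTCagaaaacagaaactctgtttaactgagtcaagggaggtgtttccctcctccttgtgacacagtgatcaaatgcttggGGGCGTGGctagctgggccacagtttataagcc
Cmpk2: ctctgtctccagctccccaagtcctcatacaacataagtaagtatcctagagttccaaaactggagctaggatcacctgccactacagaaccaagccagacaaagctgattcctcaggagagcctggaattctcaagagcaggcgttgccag
Ifit1: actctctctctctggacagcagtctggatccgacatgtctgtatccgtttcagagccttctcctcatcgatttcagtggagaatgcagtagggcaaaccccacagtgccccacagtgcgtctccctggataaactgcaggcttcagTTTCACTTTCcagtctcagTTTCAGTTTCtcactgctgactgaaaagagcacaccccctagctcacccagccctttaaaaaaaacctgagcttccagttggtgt

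The Rsad2 stretch held a response element match beginning 120 bases before the gene's start and a KLF consensus match beginning 33 bases before it. Ifit1 held a pair of response element matches, beginning 104 and 85 bases before its start. The Cmpk2 stretch is the 152 bases of its window that precede the gene's first annotated base. In the full window of 250 bases, searched on both strands, which for Cmpk2 runs past that base, Cmpk2 had no match to either motif, nor to CACCC or GATAA. The response element core was present in 2.98% of all 32851 such windows, the KLF consensus in 45.9%, CACCC in 52% and GATAA in 22.6%. CACCC and the KLF consensus can overlap, and Rsad2 had no CACCC match. Of the measured members, 7 matched the sequence table; Usp18 is not among them. The response element core was also found upstream of Stat2 and Ifit3, and not in the windows of Irf7 or Irf9. The KLF consensus was also found upstream of Irf7, Stat2 and Ifit3, and not in the windows of Irf9 or Ifit1. A match is a run of letters and says nothing of binding.

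The KO-labelled arrays could not be checked on Klf3 itself. Its probe set averaged 10.47 ± 0.11 in the 3 KO-labelled TER119 positive arrays and 10.22 ± 0.26 in the 4 WT arrays (SD), and a probe set outside the deleted part checks nothing. Genes reported to be repressed by KLF3 did separate the genotypes: Klf8, which encodes a related repressor, averaged 7.78 in KO-labelled and 4.71 in WT TER119 positive arrays, and 4 of the 4 measured genes of that list rose there. The list may draw on these very samples and is not independent evidence. The genotype therefore rests on the labels. The median of each array over all probe sets lay between 5.28 and 5.43, and replicate arrays correlated at 0.965 to 0.992. WT TER119 negative replicates 2 and 4 and KO TER119 negative replicate 4 had been found apart from the rest in earlier work on these data, and leaving them out is among the alternatives. The file holds no detection calls, so whether a dim gene lay above background is unknown. In RNA from a mixture of cells, fewer cells of a type and less RNA per cell cannot be told apart.

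The first comparison asked whether the interferon response genes differ between Klf3 KO and WT cells selected for TER119. Of the 8 measured members, Rsad2 and Cmpk2 rose in KO-labelled cells and 6 did not pass the test. Over all 19938 genes, 1.02% passed in either direction, 0.903% as higher and 0.115% as lower (limma's moderated test, adjusted p under 0.05 by Benjamini-Hochberg). The median difference over the 8 members was 0.11, beside -0.01 over all genes. Because the members were chosen with earlier results of these data known, nothing is read from how their count or median compares with all genes.

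Rsad2 stood at 11.87, 11.62 and 11.38 in the KO-labelled TER119 positive arrays, against 10.34, 10.79, 10.65 and 10.25 in the WT arrays. Every KO-labelled array was above every WT array. The KO minus WT difference was 1.12 on the log2 scale (SE 0.16, 95% interval 0.78 to 1.45, limma adjusted p = 0.000593), or 2.17-fold. In WT cells of this fraction Rsad2 was already far above its own level in TER119 negative cells.

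Cmpk2, its neighbour, read 6.34, 6.31 and 6.04 in KO-labelled and 5.20, 5.58, 5.39 and 5.11 in WT TER119 positive arrays. These groups did not overlap either. The difference was 0.91 (SE 0.13, 95% interval 0.64 to 1.19, limma adjusted p = 0.000608), or 1.88-fold. The probe set was dim in all groups, and differences between dim signals tend to be compressed in such array values. Groups that do not overlap were found for 10.1% of all genes in this comparison, and for 2 of the 8 members.

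Rsad2 and Cmpk2 ordered the 7 TER119 positive arrays identically: KO-labelled replicates 1, 2 and 3, then WT replicates 2, 3, 1 and 4. Since neither gene's groups overlapped, only the order within each genotype was free. Deviations of Rsad2 and Cmpk2 from the group means over the 15 arrays had a Pearson r of 0.70. It is given as a description, since the arrays share populations and a normalization. By this measure Cmpk2 ranked 161st among all genes in likeness to Rsad2.

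Ifit1 encodes a protein that binds viral RNA by its foreign 5′ end, and Ifit3 a relative of the same family; both are standard markers of an interferon response. Ifit1 stood at 4.66, 4.42 and 4.41 in KO-labelled and 4.62, 4.42, 4.24 and 4.42 in WT TER119 positive arrays. The groups overlapped, and the difference of 0.07 (95% interval -0.28 to 0.42) did not pass the test (limma adjusted p = 1). Ifit3 read 5.25, 5.41 and 5.39 in KO-labelled and 5.41, 5.45, 5.60 and 5.29 in WT arrays. Its difference was -0.09 (95% interval -0.40 to 0.22, limma adjusted p = 1), again with overlapping groups.

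Among the regulators, Irf7 came nearest to a difference. It stood at 5.39, 5.86 and 5.89 in KO-labelled and 5.68, 5.22, 5.23 and 5.19 in WT TER119 positive arrays. KO-labelled replicate 1 lay below WT replicate 1, so the groups overlapped. The difference was 0.38 (SE 0.14, 95% interval 0.08 to 0.68, unadjusted p = 0.0152) and did not pass after adjustment (limma adjusted p = 0.545). An unadjusted p under 0.05 was reached by 3 of the 8 members, Rsad2, Cmpk2 and Irf7, and by 5.33% of all genes.

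Irf9 and Stat2, the DNA-binding and transactivating partners in ISGF3, were read in the same arrays. Irf9 stood at 6.97, 7.14 and 7.10 in KO-labelled and 7.09, 6.88, 6.85 and 6.83 in WT TER119 positive cells, a difference of 0.16 (95% interval -0.18 to 0.49). Stat2 was at 7.17, 7.10 and 6.88 in KO-labelled and 6.91, 7.15, 6.86 and 7.15 in WT cells, a difference of 0.03 (95% interval -0.25 to 0.31). For both genes the groups overlapped and the adjusted p of limma was 1. Usp18 encodes the protease that removes ISG15 from proteins and damps the type I receptor. It read 5.06, 5.28 and 5.06 in KO-labelled and 5.20, 5.41, 4.89 and 5.06 in WT arrays, a difference of -0.01 (95% interval -0.45 to 0.44, limma adjusted p = 1). The intervals of Ifit1, Ifit3, Irf9, Stat2 and Usp18 all end below the lower bound of the Cmpk2 interval, 0.64. That of Irf7 reaches 0.68. Ifit1 averaged 4.49 in KO-labelled and 4.42 in WT TER119 positive arrays, Ifit3 5.35 and 5.44, and Usp18 5.13 and 5.14. These probe sets were dim, so a difference in them may have been compressed.

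**Figure D1:**
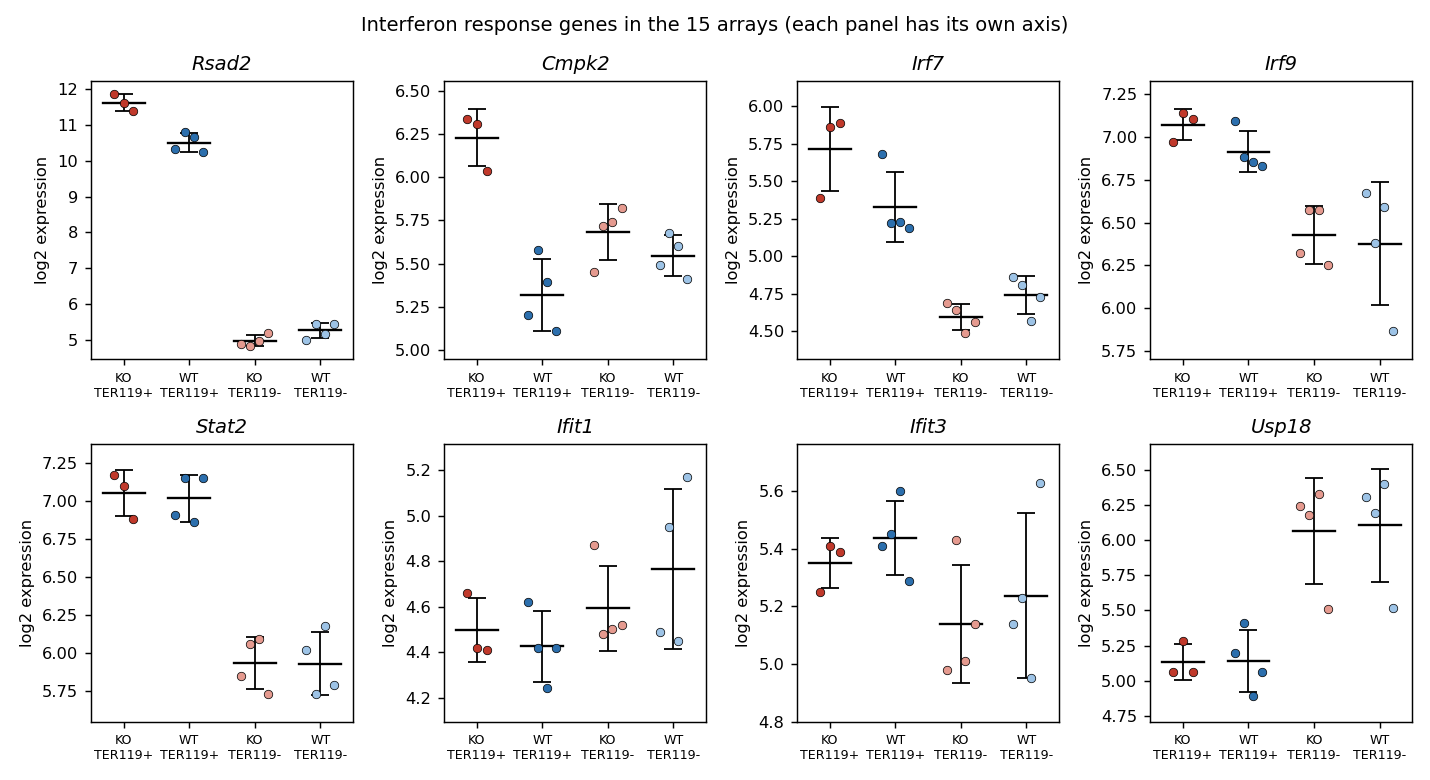
Log2 expression of the 8 measured members in each of the 15 arrays, with KO-labelled and WT TER119 positive arrays on the left and KO-labelled and WT TER119 negative arrays on the right. Points are arrays, long bars are group means and whiskers are SDs; Rsad2 lies between 10.25 and 11.87 in TER119 positive and between 4.84 and 5.45 in TER119 negative arrays.

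The second comparison asked the same of the cells depleted of TER119. None of the 8 members passed the test there with limma, and 0 had an unadjusted p under 0.05, where 0.0853% of all genes passed and 7.56% had an unadjusted p under 0.05. Rsad2 stood at 4.90, 4.84, 4.96 and 5.19 in KO-labelled and 5.0, 5.45, 5.17 and 5.44 in WT TER119 negative arrays. It was dim in both genotypes, and the groups overlapped. The difference was -0.29 (SE 0.15, 95% interval -0.60 to 0.02, limma adjusted p = 0.655). Cmpk2 read 5.45, 5.72, 5.74 and 5.82 in KO-labelled and 5.49, 5.68, 5.60 and 5.41 in WT arrays, a difference of 0.14 (95% interval -0.11 to 0.39, limma adjusted p = 0.726). The other 6 members differed by -0.17 to 0.05.

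Among those 6, Irf7 was low in every TER119 negative array, at 4.69, 4.64, 4.49 and 4.56 in KO-labelled and 4.86, 4.81, 4.57 and 4.73 in WT cells. Irf9 was at 6.32, 6.57, 6.57 and 6.25 in KO-labelled and 6.67, 6.38, 6.59 and 5.87 in WT cells. Stat2 read 5.85, 6.06, 6.09 and 5.73 in KO-labelled and 6.02, 5.73, 6.18 and 5.79 in WT cells. In all of these the genotypes overlapped. Ifit1 was at 4.87, 4.48, 4.50 and 4.52 in KO-labelled and 4.49, 4.95, 4.45 and 5.17 in WT cells, with WT replicates 2 and 4 the highest of the 15 arrays. Ifit3 was at 4.98, 5.43, 5.01 and 5.14 in KO-labelled and 5.14, 5.23, 4.95 and 5.63 in WT cells. Usp18 stood at 6.24, 6.18, 6.33 and 5.51 in KO-labelled and 6.31, 6.19, 6.40 and 5.52 in WT cells. Replicate 4 of each genotype was the low array for Usp18, and these are among the 3 arrays that stood apart.

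The difference between the genotype effects was tested as an interaction. It passed for 1 of the 8 members, Rsad2, whose KO minus WT difference was larger in TER119 positive than in TER119 negative cells by 1.41 (SE 0.21, 95% interval 0.95 to 1.86, limma adjusted p = 0.0031). Over all genes 0.436% passed. Rsad2 was dim in TER119 negative cells, at 4.97 in KO-labelled and 5.27 in WT arrays, where differences tend to be compressed. The part of that low level in its interaction was not tested. For Cmpk2 the effects differed by 0.77 (SE 0.18, 95% interval 0.40 to 1.15), which missed the threshold (limma adjusted p = 0.0891). It passed when WT TER119 positive replicate 2 was left out, with a difference of 0.86 (limma adjusted p = 0.0408). The other 6 members had interactions of 0.01 to 0.53, with Irf7 the highest, and none passed.

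**Figure D2:**
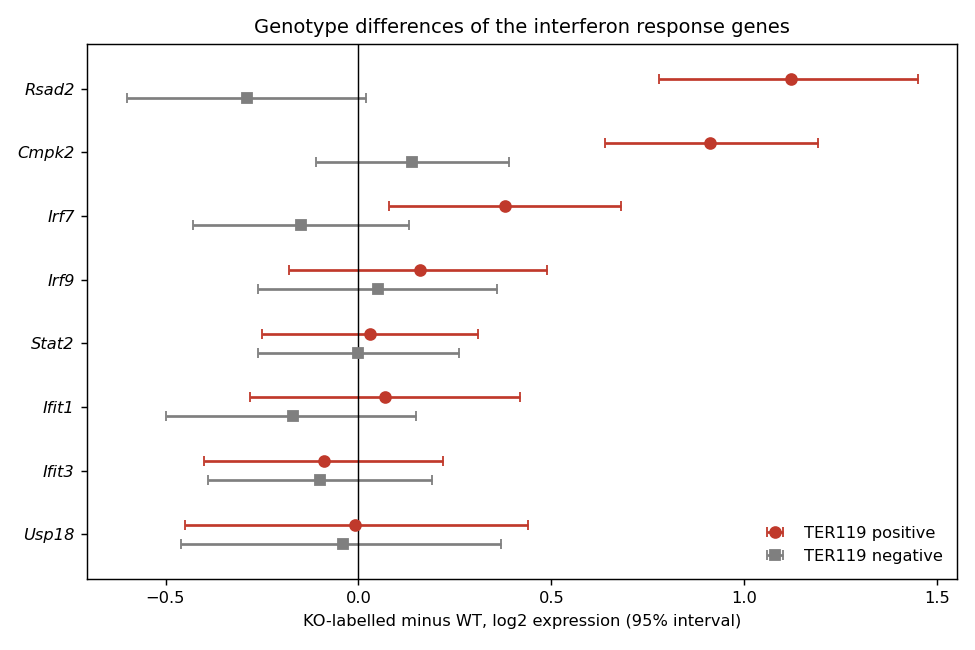
KO-labelled minus WT difference in log2 expression of the 8 measured members, in TER119 positive cells (circles) and TER119 negative cells (squares), with 95% intervals from the linear model. The intervals of Rsad2 (0.78 to 1.45) and Cmpk2 (0.64 to 1.19) in TER119 positive cells lie farthest from 0.

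The population comparisons set TER119 positive against TER119 negative cells within a genotype. The arrays of the 2 fractions carry different name patterns, so the fraction and any array batch cannot be told apart. In KO-labelled cells 5 members were higher and 1 was lower in the TER119 positive fraction, and 2 did not pass, where 49% of all genes passed in either direction, 22.6% as higher and 26.5% as lower. In WT cells 4 were higher, 1 was lower and 3 did not pass, where 52.6% of all genes passed, 23.5% as higher and 29.1% as lower. The counts of higher members stood above those shares in both genotypes, for 8 genes that were chosen with these values known, and nothing particular to them is read from the counts.

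Rsad2 averaged 11.62 ± 0.25 (SD, n = 3) in KO-labelled TER119 positive and 4.97 ± 0.15 (n = 4) in KO-labelled TER119 negative cells, a difference of 6.65 (SE 0.16, 95% interval 6.32 to 6.98, limma adjusted p = 4.56e-14). In WT cells it averaged 10.51 ± 0.26 in TER119 positive and 5.27 ± 0.22 in TER119 negative arrays (SD, n = 4 each), a difference of 5.24 (SE 0.15, 95% interval 4.93 to 5.55, limma adjusted p = 7.92e-14). The WT difference is 37.8-fold as measured, and inexact because the low side is dim. Across the 4 groups the level ran from KO-labelled TER119 positive through WT TER119 positive down to the TER119 negative cells, where the difference between the genotypes did not pass the test.

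Cmpk2 did not share that pattern. In KO-labelled cells it averaged 6.23 ± 0.16 (SD, n = 3) in TER119 positive and 5.68 ± 0.16 (n = 4) in TER119 negative arrays, higher by 0.55 (SE 0.13, limma adjusted p = 0.00188). In WT cells it averaged 5.32 ± 0.21 in TER119 positive and 5.54 ± 0.12 in TER119 negative arrays (SD, n = 4 each), a difference of -0.23 that did not pass (limma adjusted p = 0.127). The WT difference did pass without WT TER119 positive replicate 2, at -0.31 (limma adjusted p = 0.0424). Over the log2 values of all 15 arrays Cmpk2 had a Pearson r of 0.263 with Rsad2.

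The regulators were higher in TER119 positive cells of both genotypes, apart from Usp18. Stat2 was higher by 1.12 in KO-labelled (SE 0.13, limma adjusted p = 2.16e-06) and by 1.09 in WT cells (SE 0.12, limma adjusted p = 1.17e-06). Irf9 was higher by 0.64 in KO-labelled (limma adjusted p = 0.00263) and 0.53 in WT cells (limma adjusted p = 0.0055). Irf7 was higher by 1.12 in KO-labelled (limma adjusted p = 3.99e-06) and 0.59 in WT cells (limma adjusted p = 0.00111). Usp18 ran the other way and was lower in TER119 positive cells, with a difference of -0.93 in KO-labelled (SE 0.21, limma adjusted p = 0.00143) and of -0.97 in WT cells (SE 0.20, limma adjusted p = 0.00052). The effectors Ifit1 (-0.10 in KO-labelled and -0.34 in WT cells) and Ifit3 (0.21 in KO-labelled and 0.20 in WT cells) did not pass in either genotype. In WT, Ifit1 passed without WT TER119 negative replicate 1 or 3, at -0.43 and -0.44, and Ifit3 without WT TER119 negative replicate 4, at 0.33.

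The genes that attach ISG15, the modifier that Usp18 removes, did not move one way; they were put together by this role, not as a list. Uba7, the activating enzyme, was higher in TER119 positive cells by 3.17 in KO-labelled cells (SE 0.15, limma adjusted p = 4.13e-11). In WT cells Uba7 averaged 8.89 in TER119 positive and 5.45 in TER119 negative arrays, a difference of 3.44 (SE 0.14, limma adjusted p = 4.7e-12). Ube2l6, the conjugating enzyme, was higher by 4.42 in KO-labelled cells (SE 0.12, limma adjusted p = 1.29e-13), and averaged 11.24 in WT TER119 positive and 6.99 in WT TER119 negative arrays, a difference of 4.25 (SE 0.11, limma adjusted p = 6.52e-14). Herc6, the ligase that acts in mouse, was lower, as Usp18 was, with a difference of -1.48 in KO-labelled (SE 0.13, limma adjusted p = 8.62e-08) and -0.94 in WT cells (SE 0.12, limma adjusted p = 6.8e-06); it was named after its values were seen. Between the genotypes in TER119 positive cells, Uba7 differed by -0.27 (adjusted p = 1), Ube2l6 by 0.09 (adjusted p = 1) and Herc6 by -0.33 (adjusted p = 0.728) in limma's test, and none passed.

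The rest of the pathway was followed through 7 lists of interferon genes, with 125 measured genes in all. In TER119 positive cells 4 of the 125 passed between KO-labelled and WT arrays: Rsad2, Cmpk2, Tapbp and Ifnl2. Over all genes 1.02% passed there. The members and these lists were chosen with earlier results of these data known, so nothing about the pathway is read from the count. Of the type I interferon-stimulated genes, 56 of 60 were measured, 2 rose, 0 fell and 54 did not pass, with a median difference of 0.06 beside -0.01 over all genes. Leaving out the 8 measured members, 48 of these remained, of which 0 passed with limma and 4 had an unadjusted p under 0.05. Their median difference was 0.03 and their range -0.33 to 0.58.

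Upstream of the response, 14 interferon ligand genes were measured. Ifnl2, which encodes an interferon lambda, averaged 5.82 in KO-labelled and 6.38 in WT TER119 positive cells and fell by 0.56 (SE 0.12, limma adjusted p = 0.0351). Interferon genes have near-identical copies that can share probes, so this value may not belong to Ifnl2 alone. It missed the threshold in 10 of 26 alternatives. Of the 6 receptor chains 0 passed with limma and 2 had an unadjusted p under 0.05, with a median difference of 0.12. Of the 15 JAK-STAT genes 0 passed and 3 had an unadjusted p under 0.05 (median -0.03). Among 8 interferon regulatory factors 0 passed and 2 had an unadjusted p under 0.05 (median 0.18), and for the 18 nucleic acid sensors and adaptors both counts were 0 (median 0.07). In the list of interferon gamma-induced GTPases and antigen processing genes, 1 of 19 passed: Tapbp, which encodes the chaperone tapasin, averaged 7.92 in KO-labelled and 7.43 in WT cells, a difference of 0.49 (SE 0.11, limma adjusted p = 0.0494). That call was lost in 18 of 26 alternatives. Over all lists, 17 of the 125 genes had an unadjusted p under 0.05 in TER119 positive cells, where 5.33% of all genes did. In TER119 negative cells 0 of the 125 passed with limma, where 0.0853% of all genes did. There 15 had an unadjusted p under 0.05, where 7.56% of all genes did, and the list medians lay between -0.10 and 0.15.

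**Figure D3:**
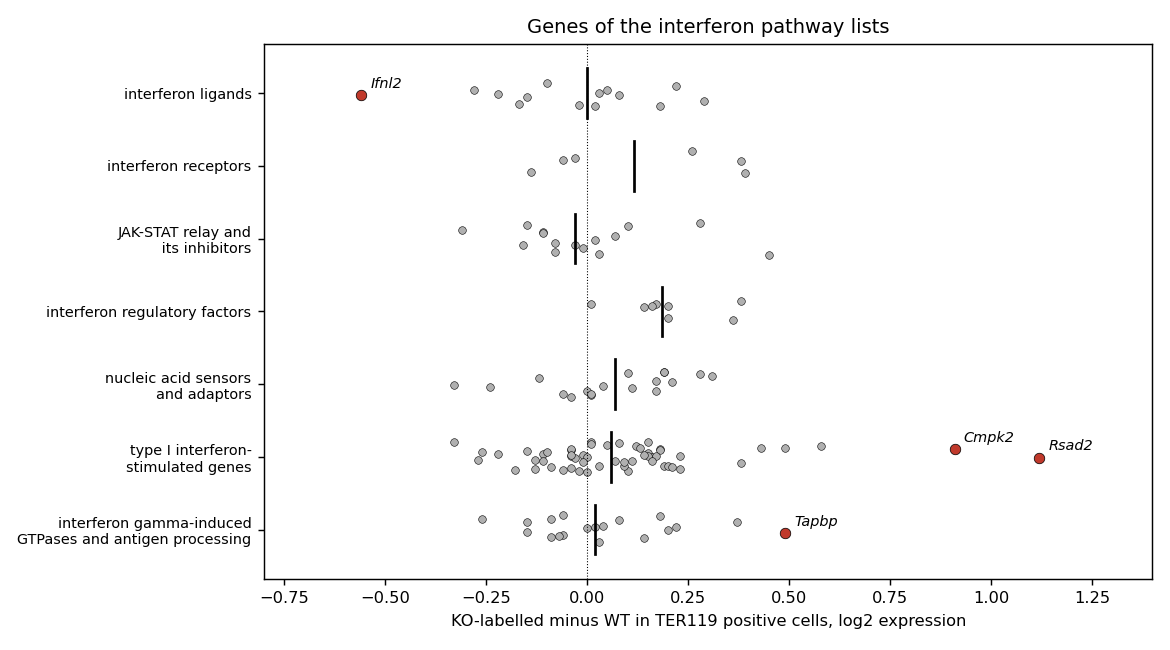
KO-labelled minus WT difference in TER119 positive cells for each measured gene of the 7 interferon lists, one point per gene, with vertical bars at the list medians. Named points passed at an adjusted p under 0.05; Rsad2 (1.12) and Cmpk2 (0.91) lie to the right of the other type I genes, whose differences end at 0.58. Some genes are in more than one list.

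Between the populations the pathway genes went both ways. Of the 48 other type I genes in KO-labelled cells, 13 were higher in the TER119 positive fraction, 20 were lower and 15 did not pass. Over all genes 22.6% were higher and 26.5% lower there. In WT cells 12 of the 48 were higher, 21 were lower and 15 did not pass, beside 23.5% and 29.1% of all genes. The median of the 48 in WT cells was -0.14 beside -0.09 over all genes. The values that follow are of WT cells. Lgals3bp, which encodes a secreted galectin-binding glycoprotein, was higher by 3.20 (SE 0.15, limma adjusted p = 2.11e-11). Both chains of the type I receptor were higher in WT TER119 positive cells, Ifnar1 by 1.80 (SE 0.11, adjusted p = 1.03e-09) and Ifnar2 by 0.87 (SE 0.21, adjusted p = 0.00209), as was the kinase gene Tyk2, by 0.95 (adjusted p = 1.04e-05), all in limma's test. Il10rb, a chain of the interferon lambda receptor, was higher by 1.91. Ifngr1, the ligand-binding chain for interferon gamma, was lower, with a difference of -1.35. Ifngr2, the other chain of that receptor, was higher by 0.32 (limma adjusted p = 0.0298). Of the 6 measured receptor chains 4 were higher, 1 was lower and 1 did not pass, beside 23.5% and 29.1% of all genes.

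The regulatory factor genes split in WT cells, 3 higher, 2 lower and 3 not passing, where 23.5% of all genes were higher and 29.1% lower. Irf3, which acts early after viral sensing, was higher by 0.69, and Irf2, which can antagonise interferon transcription, was lower at a difference of -2.09. Among sensors and adaptors 4 were higher and 9 lower, with Mavs, the mitochondrial adaptor of RNA sensing, higher by 1.70, and Aim2, a cytosolic DNA sensor, lower at -2.67. Genes of the immunoproteasome were lower, at -1.52 for Psmb8, -1.85 for Psmb9 and -1.83 for Psmb10, as was B2m, the light chain of MHC class I, at -1.31. Tapbp was higher by 1.65. All of these passed in limma's test.

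Markers of several cell types moved with the populations beside these values, where 23.5% of all genes were higher and 29.1% lower in WT TER119 positive cells. The 9 measured erythroid markers were all higher in WT TER119 positive cells, with a list mean of 11.91 there (range 11.85 to 11.98) against 8.28 in WT TER119 negative cells (7.97 to 8.60). Hepatocyte-lineage markers were also higher, 15 of 15, at 11.35 (11.00 to 11.69) in WT TER119 positive and 7.26 (6.08 to 8.18) in WT TER119 negative cells. Macrophage markers were higher for 17 of 18, at 8.34 (8.21 to 8.51) in WT TER119 positive and 5.91 (5.80 to 6.05) in WT TER119 negative cells, and Lyz2, shared with neutrophils and named after its values were seen, was the one lower. Plasmacytoid dendritic cells are strong producers of type I interferon; of their 9 measured markers 1 was higher and 5 were lower, and the list mean was 4.92 (4.85 to 5.0) in WT TER119 positive and 5.47 (5.41 to 5.52) in WT TER119 negative cells. Endothelial markers were higher for 10 of 12, with a list mean of 7.26 in WT TER119 positive and 5.71 in WT TER119 negative cells, and stromal markers for 10 of 12, at 6.33 in WT TER119 positive and 5.03 in WT TER119 negative cells. Neutrophil and granulocyte precursor markers were lower for 14 of 14, at 5.09 in WT TER119 positive and 9.96 in WT TER119 negative cells, with a median difference of -5.14. Also lower were 8 of 10 haematopoietic progenitor, 6 of 11 B cell and 6 of 10 T and natural killer cell markers, with 0 higher in each list. The part of each cell type in the level of any interferon gene was not tested.

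Between the genotypes the same markers were compared within each fraction. In TER119 positive cells the macrophage list mean was 8.26 (8.13 to 8.37) in KO-labelled and 8.34 (8.21 to 8.51) in WT arrays, with 0 of 18 higher, 1 lower and a median difference of -0.00. Of these 18 markers 4 had an unadjusted p under 0.05, where 5.33% of all genes did. Markers higher in every KO-labelled than in every WT array numbered 3, and 2 were lower, beside 5.29% and 4.81% of all genes. The one that passed, as lower, was Vsig4, a complement receptor of resident macrophages that was named after its values were seen. Its difference was -1.21 (SE 0.17, limma adjusted p = 0.000491). The erythroid list mean was 11.88 in KO-labelled and 11.91 in WT arrays, the hepatocyte-lineage mean 11.45 in KO-labelled and 11.35 in WT arrays, and the plasmacytoid dendritic cell mean 4.88 in KO-labelled and 4.92 in WT arrays. Of these 3 lists 0 genes passed in limma or had an unadjusted p under 0.05. With the hepatocyte-lineage mean of each array as a covariate, the Rsad2 difference was 1.10 and that of Cmpk2 0.91. The 10 measured megakaryocyte markers had a median difference of -0.77, with 0 passing in limma, 6 at an unadjusted p under 0.05 and all 10 lower in every KO-labelled than in every WT array, where 4.81% of all genes were; their part in the result was not tested. In TER119 negative cells the hepatocyte-lineage mean was 6.52 (5.87 to 7.29) in KO-labelled and 7.26 (6.08 to 8.18) in WT arrays. The median difference was -0.84, with 0 of 15 passing in limma and 6 at an unadjusted p under 0.05, where 7.56% of all genes were. So were 3 of 9 erythroid (median 0.23), 3 of 18 macrophage (-0.11) and 2 of 9 plasmacytoid dendritic cell markers (-0.15). Of the 10 megakaryocyte markers 0 were (-0.31), and none in these lists passed in limma. The part of these lists in the TER119 negative results and in the Rsad2 difference between the fractions was not tested.

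**Figure D4:**
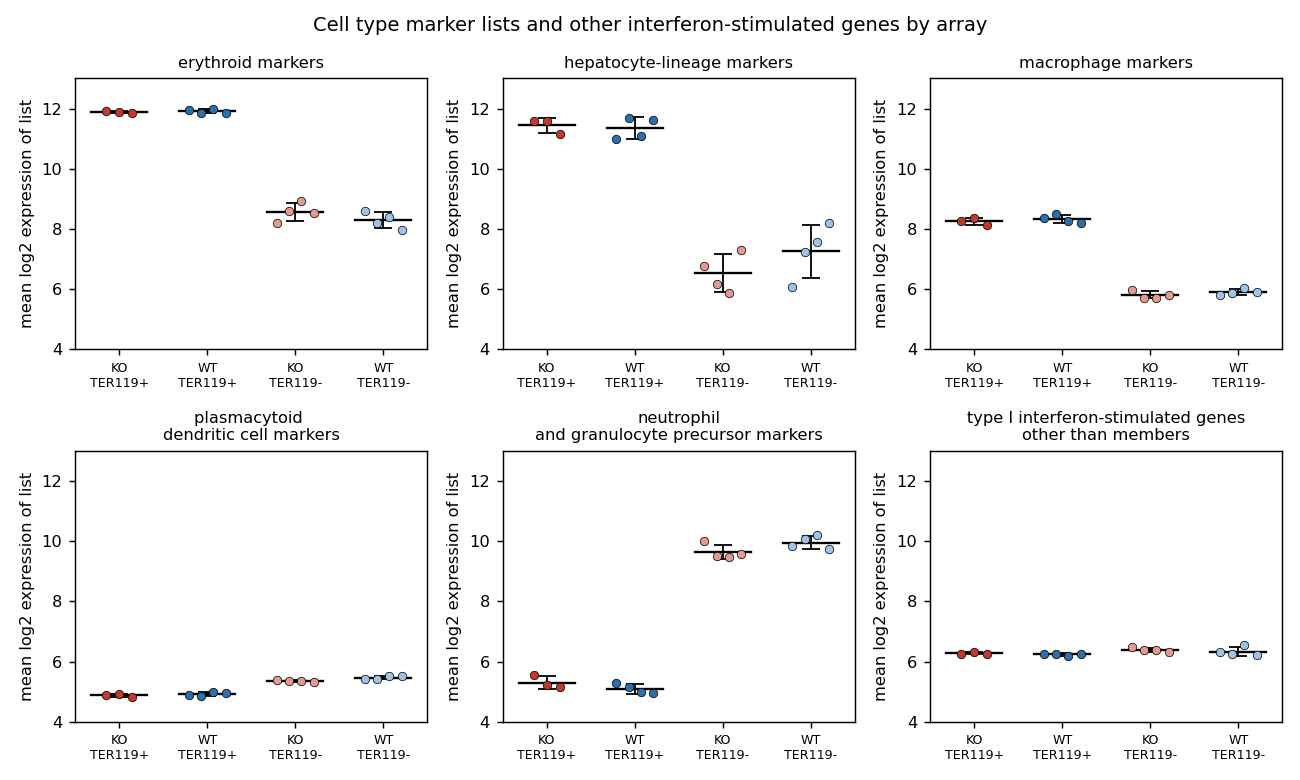
Mean log2 expression of 5 marker lists and of the 48 other type I interferon-stimulated genes in each array, KO-labelled before WT within TER119 positive and then TER119 negative cells. Points are arrays, bars are group means and whiskers SDs; the macrophage mean is 8.26 in KO-labelled and 8.34 in WT TER119 positive arrays, and 5.81 in KO-labelled and 5.91 in WT TER119 negative arrays.

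The genes most like Rsad2 over the log2 values of the 15 arrays were Fcna (Pearson r 0.998), Epb41l3 (0.997), Marco (0.996), F930017D23Rik (0.995) and Cpeb3 (0.995). These values describe a pattern set mainly by the population, since all points share the 2 fractions. Marco, a scavenger receptor gene, is one of the macrophage markers, and Fcna encodes the lectin ficolin A. In TER119 positive cells Fcna averaged 9.50 ± 0.14 over the 3 KO-labelled arrays and 9.04 ± 0.18 over the 4 WT arrays (SD), a difference of 0.46 that did not pass (limma adjusted p = 0.0733). F930017D23Rik rose by 0.69 (SE 0.14, limma adjusted p = 0.0187), and it was 10.76 in KO-labelled and 10.07 in WT cells. Epb41l3, Marco and Cpeb3 differed by 0.39, 0.28 and 0.36 without passing. Unadjusted p in limma's test was 0.000831 for Fcna, 0.00192 for Epb41l3, 0.0296 for Marco and 0.00319 for Cpeb3. For all of these genes but Marco, every KO-labelled array was above every WT array, as for 5.29% of all genes. The genes were picked by likeness to Rsad2 in these same arrays, so their genotype differences are not independent of its own. By deviations from the group means the nearest genes were Tyw5 (0.915), Vmn1r6 (0.878), Skint2 (0.875), Sult2a3 (0.864) and Iqub (0.857). None of these 5 passed between the genotypes in either fraction with limma (Skint2 in TER119 negative cells had an unadjusted p of 0.0416), and apart from Tyw5 all had group means under 5.

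Along chromosome 12 the 5 measured genes on each side of Rsad2 were compared in the same way. On one side lie Rrm2, Mboat2, Kidins220, Id2 and Rnf144a, and on the other Cmpk2, Gm9866, Sox11, Dcdc2c and Allc. In TER119 positive cells Rsad2 and Cmpk2 passed and the other 9 did not, where 1.02% of all genes passed. Mboat2, a lysophospholipid acyltransferase gene, differed by 0.57 (adjusted p = 0.204), and Sox11, a developmental transcription factor gene, by 0.47 (adjusted p = 0.252) in limma's test. Their unadjusted p-values in that test were 0.00336 for Mboat2 and 0.00442 for Sox11, where 5.33% of all genes were under 0.05. For both, every KO-labelled array was above every WT array, as it was for Rnf144a (0.15) and for 5.29% of all genes. Id2 and Rnf144a, the nearest genes on the Rsad2 side, differed by 0.11 and 0.15. In TER119 negative cells none of the 11 passed with limma, and 1, Mboat2, had an unadjusted p under 0.05.

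**Figure D5:**
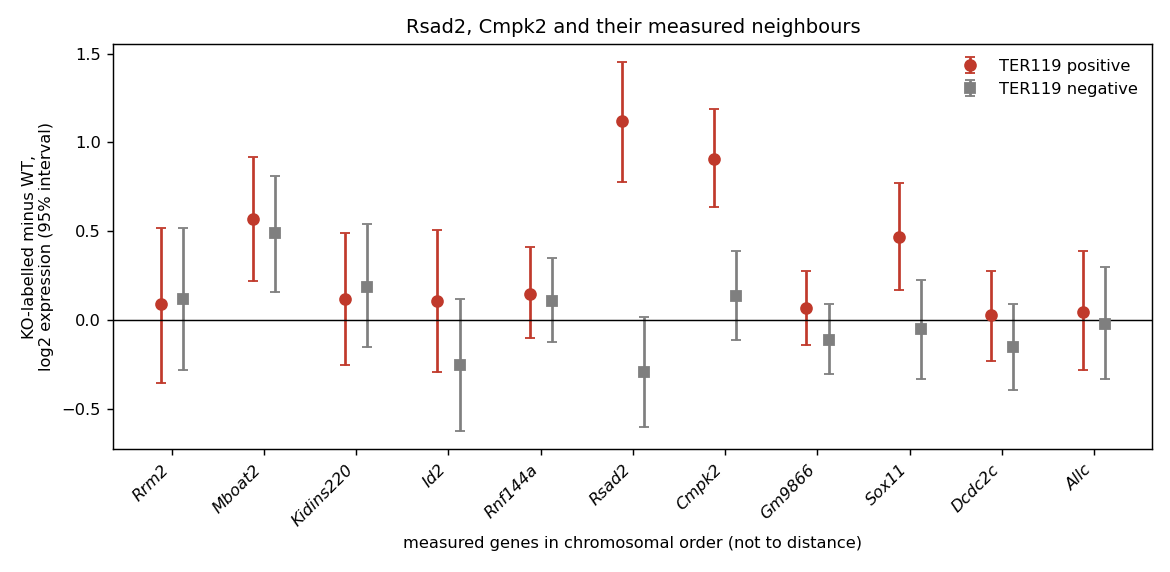
KO-labelled minus WT difference in log2 expression with 95% intervals for Rsad2, Cmpk2 and their measured neighbours on chromosome 12, in gene order and not to distance, for TER119 positive (circles) and TER119 negative cells (squares). In TER119 positive cells Rsad2 (1.12) and Cmpk2 (0.91) stand above Mboat2 (0.57) and Sox11 (0.47).

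Some members also deviated together from the group means, as a description over 15 arrays that share their groups. The pairs named here were picked from all pairs of the 8 measured members. Usp18 went with Irf9 (r 0.78) and Stat2 (r 0.63), and Irf9 with Stat2 (r 0.46). Ifit1 ran against Irf9 (r -0.68), and Rsad2 against Irf9 (r -0.56). WT TER119 negative replicate 4, which had the lowest Irf9 value (5.87) and the highest Ifit1 (5.17) and Ifit3 (5.63) values of its group, is one of the points in each of these. Its Usp18 value (5.52) was also the lowest of its group. KO TER119 negative replicate 4 had the lowest Usp18 (5.51), Irf9 (6.25) and Stat2 (5.73) values of its group. Both are among the 3 arrays that stood apart, and their part in these r values was not tested.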

How the data were processed

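The 15 samples were hybridised to Affymetrix MoGene 1.0 ST arrays. The deposited values are log2 expression per probe set, made by the authors with RMA and Partek, per the submitters' processing notes, which name no versions. This method corrects background and aligns the arrays' distributions. Differences between dim signals tend to be compressed in such values, and how far they were here was not measured. Of 35399 probe sets, 21789 carried 1 symbol in the platform's annotation, 1621 carried several and 11989 none; 21698 of those with 1 symbol matched the RefSeq table of GRCm38.p6 by Entrez identifier. The probe set of highest mean was kept for each symbol, which left 19938 genes, with no filter on dim genes.

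A mean per group was fitted to all 15 arrays with limma 3.58.1 in R 4.3.3, which left 11 residual degrees of freedom, and 5 contrasts were tested. Adjusted p-values come from the moderated test of limma, 2-sided, with Benjamini-Hochberg adjustment over all 19938 genes and a threshold of 0.05. Differences are the first named group minus the second, with model SEs and 95% intervals; levels have SDs. The script was tested on simulated data.

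The members and the gene lists were chosen with earlier results of these data known. All members were named, as were list genes past the threshold in a genotype comparison, up to 4 genes per list with the smallest p in each population comparison (not all are printed), the 5 genes most like Rsad2 by each measure, and 5 measured neighbours on each side. Marker lists covered 11 cell types; the haematopoietic progenitor, neutrophil, B cell, T and natural killer cell, endothelial and stromal lists had 0 genes past the threshold between the genotypes in either fraction, and 0 to 2 genes each at an unadjusted p under 0.05 in TER119 positive and 0 to 5 in TER119 negative cells. Samples were grouped by their titles. The same replicate numbers recur across groups: over 14 same-numbered pairs the deviations from the group means correlated at -0.384 to 0.654, with 5 pairs over 0.1, so the numbers were not taken to pair the samples. Alternatives covered normalization, the choice of probe set, a filter on dim genes, array weights, the variance prior, fits on 2 groups, covariates (hepatocyte-lineage mean; Xist, since the labels do not give the sex of the embryos), the replicate number as a block and leaving out arrays.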

Additional observations from a re-analysis of the deposited data

Results flagged for a closer look

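The effect of the genotype on Rsad2 differed between the fractions: the KO minus WT difference was larger in TER119 positive than in TER119 negative cells by 1.41 on the log2 scale, as tested by the interaction in limma (adjusted p = 0.0031). Rsad2 was dim in TER119 negative cells, where differences tend to be compressed, and the part of that low level was not tested. A single array stood away from the others of its group in 2 of the 24 groups of 4 arrays examined, by Dixon's ratio of the gap to the range at its 95% critical value; chance gives about 1 in 20. Irf7 in WT TER119 positive cells had a ratio of 0.912, with replicate 1 at 5.68 and the others between 5.19 and 5.23. Ifit1 in KO-labelled TER119 negative cells had a ratio of 0.894, with replicate 1 at 4.87 and the others between 4.48 and 4.52. Without that WT array the Irf7 difference in TER119 positive cells was 0.50 (limma adjusted p = 0.14).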

How the results depend on the processing

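Over 26 alternatives, Rsad2 and Cmpk2 stayed past the threshold between KO-labelled and WT TER119 positive cells, Rsad2 at 0.99 to 1.24 and Cmpk2 at 0.84 to 1.01 when 1 array was left out, and otherwise Rsad2 at 1.10 to 1.17 and Cmpk2 at 0.85 to 0.95. Of 1001 member differences recomputed, 994 kept their side of the threshold and none with a call turned direction; 7 gained a call, and 61 without a call changed sign. The number of genes past the threshold moved more: in TER119 positive cells 203 became 350 on the 2 groups alone, 386 with array weights and 323 without the 3 TER119 negative arrays that stood apart, and 148 to 226 when 1 array was left out. In TER119 negative cells 17 became 4, 31 and 8 under those 3 settings and 7 with Xist as a covariate, and 8 to 24 when 1 array was left out (11 without KO TER119 positive replicate 1 or 2 or KO TER119 negative replicate 2, and 8 without KO TER119 negative replicate 3 or WT TER119 negative replicate 2). For the interaction, 1 member became 2 with array weights (Cmpk2 0.80, limma adjusted p = 0.0212), and 1 to 2 members passed when 1 array was left out. In WT, the population difference of Ifit1 was -0.43 without WT TER119 negative replicate 1 and -0.44 without replicate 3, and that of Ifit3 0.33 without replicate 4 and 0.39 without the 3 arrays. The Ifnl2 call was lost without KO TER119 positive replicate 2 or 3, WT TER119 positive replicate 1, 3 or 4, or KO TER119 negative replicate 1 or 3 (limma adjusted p up to 0.239), and the Tapbp call without any 1 TER119 positive array, any 1 KO TER119 negative array or WT TER119 negative replicate 1 (up to 0.236). Where the alternative did not itself remove arrays or genes, the cause was not tested. With the replicate number as a block, Rsad2 differed by 1.13, the counts were 186 genes in TER119 positive and 13 in TER119 negative cells, and 1 of 6 TER119 positive and 2 of 8 TER119 negative arrays correlated best with their own number; the block changed no member's call, and ended those of Ifnl2 and Tapbp. The fit on 2 groups was not run for the interaction, and the filter on dim genes left out Irf7, Ifit1 and Ifit3.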
